A study of Mus musculus with 7 samples.

Results

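Complex I of the mitochondrial respiratory chain is built from subunits of the nuclear and the mitochondrial genome, and 35 nuclear genes named Ndufa, Ndufb, Ndufc, Ndufs or Ndufv were followed here. They are a list of gene names, proposed with earlier results of these data known. All 35 were found, with 1 row each, among the 35641 genes of the deposited table. The cells, named neutrophils in the labels, were sorted as CD45+ CD11b+ Ly6Clo Ly6G+ from the lungs of female C57BL6 mice for RNA sequencing. There were 4 libraries of HF mice and 3 of LF mice, all made with a SMART-Seq kit. The labels do not spell out HF and LF, give no age, and name no other treatment, while the study's title names obesity and oxidative stress. The comparison set by the design is HF against LF. Values are normalized counts, which are reads per gene divided by 1 size factor per library.

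Complex I takes electrons from NADH, passes them along a chain of iron-sulfur clusters to ubiquinone, and uses the energy to pump protons across the inner mitochondrial membrane. It is shaped like an L. The arm in the matrix holds the N module, which oxidizes NADH, and the Q module, which hands the electrons to quinone. The arm in the membrane holds the proton pumps, whose centres are encoded by mitochondrial DNA, wrapped in nuclear accessory subunits. The complex is also a known source of superoxide. Mature neutrophils are known to rely mostly on glycolysis and to hold few mitochondria, and monocytes hold more.

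RefSeq promoter windows (build GRCm38.p6, 250 bases before to 50 after each start) were at hand for 32 of the 35 genes, in 34 windows. Those of Ndufb9, Ndufa2 and Ndufs1 were not among them. The windows were searched on both strands for the run of GCGC, any base and TGCGC, the core of the site of NRF1, a factor known to control respiratory chain genes. It stood in the windows of 7 of the 32 genes (21.9%, in 8 of the 34 windows), against 4.6% of all 32851 windows. The 8 windows include both of Ndufa5, which overlap and hold the same match. The stretches printed here are the 120 bases before the start of 4 of the 7 genes, 5′ to 3′ on the gene's strand. Each match is in capitals. They show the sequence beside which the values of a strongly lower pair, Ndufa11 and Ndufa5, and of a pair that did not pass the test, Ndufa8 and Ndufb4, can be read.
Ndufa11, chr17:56717642-56717761, plus strand: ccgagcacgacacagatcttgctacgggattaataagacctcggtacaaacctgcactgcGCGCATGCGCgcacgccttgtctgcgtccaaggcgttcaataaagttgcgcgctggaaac
Ndufa5, chr6:24527691-24527810, minus strand: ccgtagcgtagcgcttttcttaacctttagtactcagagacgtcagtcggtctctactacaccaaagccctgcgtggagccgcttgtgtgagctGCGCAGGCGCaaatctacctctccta
Ndufa8, chr2:36049339-36049458, minus strand: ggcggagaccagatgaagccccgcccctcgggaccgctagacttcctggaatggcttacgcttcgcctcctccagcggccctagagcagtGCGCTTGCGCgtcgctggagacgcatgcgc
Ndufb4, chr16:37654369-37654488, minus strand: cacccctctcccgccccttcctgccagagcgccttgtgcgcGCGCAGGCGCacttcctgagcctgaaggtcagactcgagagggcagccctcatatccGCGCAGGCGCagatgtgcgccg

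A second motif was AAGATGGCG, the core of the site of the factor YY1. It stood in the windows of 5 of the 32 genes (15.6%, in 5 of the 34 windows), against 1.4% of all windows. In all 5 it lay just after the start, and its ATG was the annotated start codon in 5 of 5 (GENCODE M21, GRCm38). CCGGAAGT, the core of sites of ETS factors such as GABP, stood in 1 of the 32 genes, Ndufs3. This was 3.12% of the genes, in 1 of the 34 windows, against 3.89% of all windows. The 30 bases around AAGATGGCG are printed for 4 of the 5 genes, with the match in capitals. They are bases 15 to 44 after the start, again on the gene's strand. No match of one motif overlapped a match of another. A match is a run of letters and shows no binding.
Ndufc1, chr3:51408912-51408941, minus strand: tgcggaacAAGATGGCGccgtccgtagtgc
Ndufa9, chr6:126849101-126849130, minus strand: gaggcattgtgggagAAGATGGCGgccgcc
Ndufs6, chr13:73328439-73328468, minus strand: ggggtcaagggtcaccggcAAGATGGCGgc
Ndufs7, chr10:80249463-80249492, plus strand: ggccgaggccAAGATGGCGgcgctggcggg

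The libraries labelled LF went against the labelled sort. Ly6g, which encodes the sorted protein Ly6G, stood at 4431, 1301, 2378 and 4944 normalized counts in HF replicates 1 to 4 and at 0.749, 0 and 8.22 in the LF libraries, whose columns are named LF6, LF7 and LF8. Of 12 neutrophil markers 12 were higher in HF, with a summed level of 421820.0 to 569424 in HF and 8129 to 8702 in the LF-labelled libraries. Of 11 monocyte markers 11 were lower in HF, with sums of 21398 to 28473 and 168985 to 181168, and 0 of these markers were at 0 in all libraries of a group. Among markers of other cells, 4 of 8 tested for dendritic cells were lower in HF, 5 of 8 for platelets and 3 of 6 for erythroid cells were higher, and 0 of 10 for T and NK cells passed. Of 5 for B cells 1 was higher, of 7 for epithelium 2 were higher and 1 lower, and of 6 for endothelium 1 was lower. These marker differences move with every result given here, and their part in the results was not tested. Condition and cell type cannot be told apart, nor can fewer cells of a type and less RNA per cell in bulk samples. Each direction is therefore a difference between the HF libraries and the LF-labelled libraries. Depth was 13943173 to 16599658 assigned reads in HF and 16974428 to 18983351 in the LF-labelled libraries.

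Most complex I subunit genes were lower in HF, a few were higher, and they did not move as 1 block. All 35 reached the minimum mean of 10 normalized counts. With limma on log2(normalized count + 1), 22 were lower in HF, 4 were higher and 9 did not pass an adjusted p of 0.05 (Benjamini-Hochberg over all 14936 genes tested). Among all genes tested 28.7% were called lower and 26.2% higher (55.0% in all), against 62.9% and 11.4% of the 35. The median log2 difference of the 35 was -0.80, against -0.16 for all genes tested. The HF values all lay below those labelled LF in 23 of the 35 and above them in 4, where all genes gave 33.7% and 28.4% (62.2% in all). Single differences ran from -2.84 for Ndufa5 to 0.79 for Ndufb9. The authors' deposited table gave the same call for 35 of the 35 genes. Under equal library totals, a scaling that moved the median of all genes by -0.51, 30 were lower and 1, Ndufb9, was higher. The 8 genes that then passed as lower were Ndufv3, Ndufa2, Ndufs7, Ndufa1, Ndufa8, Ndufb4, Ndufb7 and Ndufb11.

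**Figure D1:**
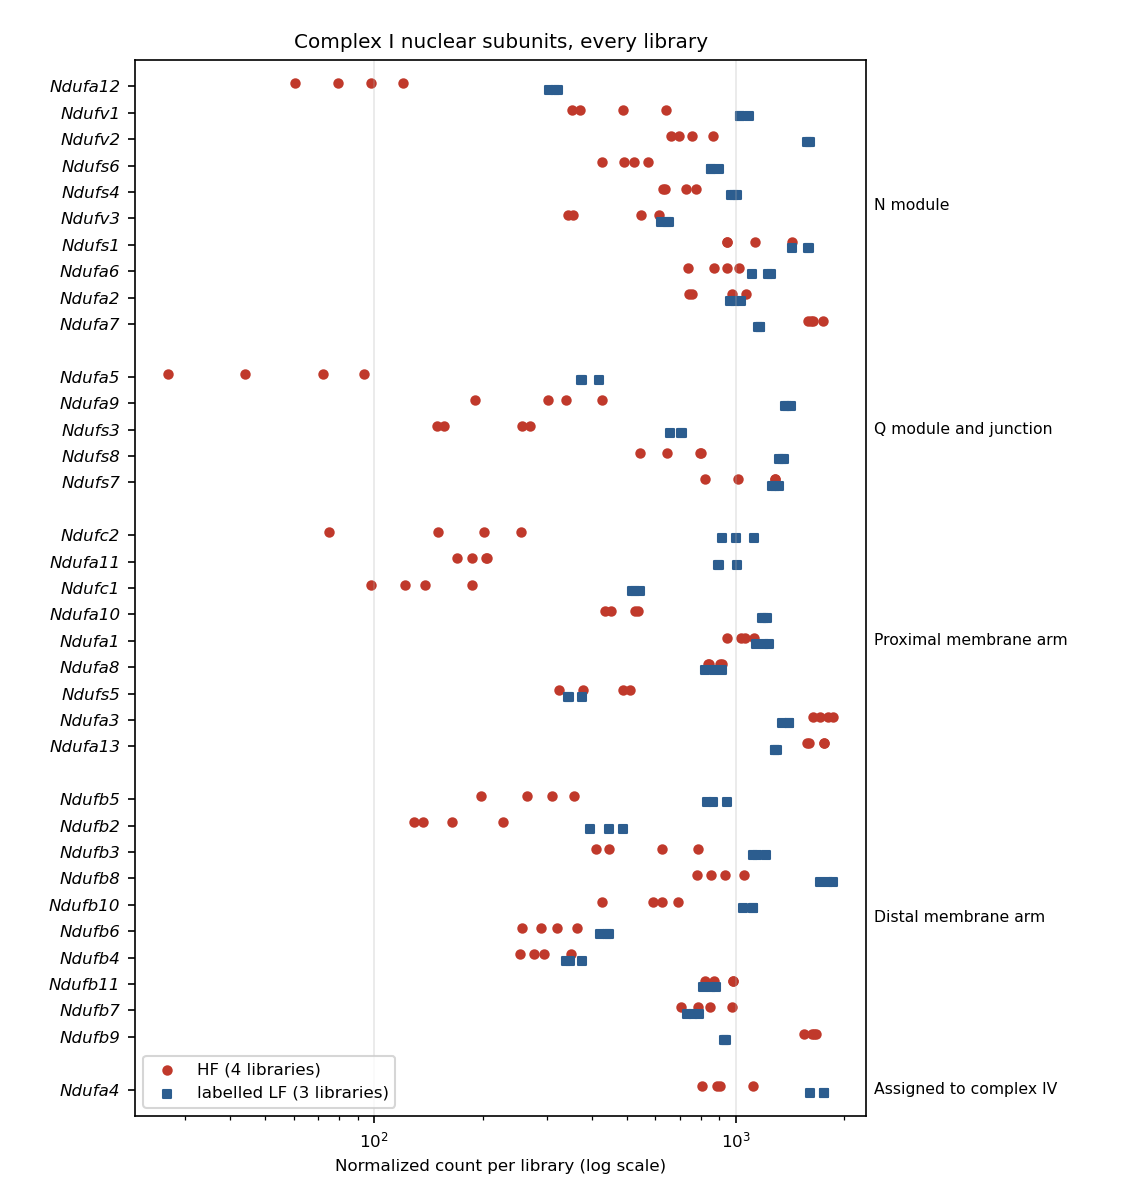
Normalized counts (log scale) of the 35 subunit genes in each of the 4 HF libraries (circles) and the 3 libraries labelled LF (squares), 1 row per gene, grouped by position in the complex. The LF squares sit close together while the HF circles of the lower genes spread, widest for Ndufa5 (26.9 to 93.6), and Ndufa7, Ndufa3, Ndufa13 and Ndufb9 lie to the right of the squares.

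**Figure D2:**
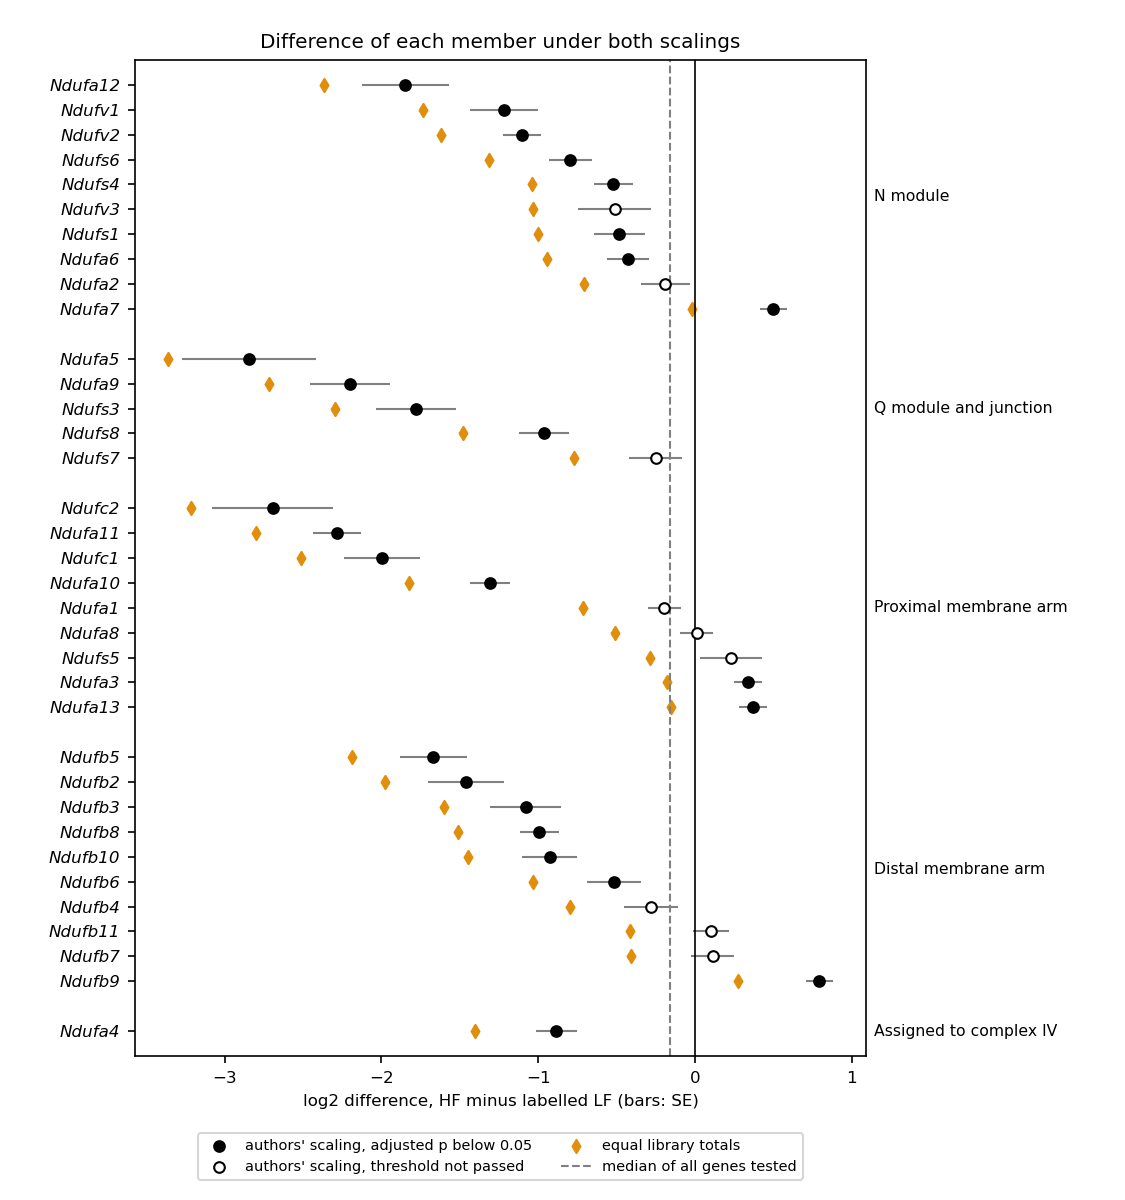
Log2 difference, HF minus labelled LF, of each gene with its SE, filled where the adjusted p was below 0.05 and open where not, beside the value under equal library totals (diamonds). Equal totals shift every gene to the left by about the same amount, and Ndufb9 is the 1 gene whose diamond lies right of 0.

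In the N module, 7 of 10 genes were lower, 1 was higher and 2 did not pass, with a median log2 difference of -0.52. Ndufv1, the subunit that binds FMN and takes the electrons from NADH, stood at 642, 372, 353 and 489 in HF replicates 1 to 4 and at 1087, 1031 and 1027 in LF6, LF7 and LF8. Its iron-sulfur partner Ndufv2 stood at 866, 697, 664 and 757 and at 1576, 1593 and 1609. The highest HF library stayed well under the lowest LF-labelled library for both genes, with differences of -1.22 ± 0.22 and -1.10 ± 0.12 (SE; limma adjusted p = 0.0019 and 0.00013). Ndufs1, the largest core subunit of the module with several iron-sulfur clusters, differed less, with 949.9, 1133, 949 and 1434 in HF and 1587, 1434 and 1593 in the LF-labelled libraries. HF replicate 4 overlapped with LF7, and the difference of -0.48 ± 0.16 (SE) just passed (limma adjusted p = 0.034). That call was lost without HF replicate 1, 2 or 3, without LF6, LF7 or LF8 (limma adjusted p = 0.052 to 0.106), and with no filter or no trend (0.0698 and 0.0713).

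Among the accessory subunits of the N module, Ndufa12 was the most reduced, at 119.9, 97.7, 60.5 and 79.5 in HF and 316, 305 and 323 in the LF-labelled libraries. Its mean in HF was 28.4% of that in the LF-labelled libraries, a log2 difference of -1.85 ± 0.28 (SE; limma adjusted p = 0.00077). NDUFA12 takes the place of the assembly factor NDUFAF2 as the arm matures. Ndufs6, a zinc-binding subunit, had a mean of 503 ± 60.2 in HF (SD, n = 4), against 869.9 ± 24.7 in the LF-labelled libraries (SD, n = 3). Ndufs4, whose loss causes Leigh syndrome in humans, averaged 693 ± 72.1 and 990.2 ± 17.1. Both genes were lower, with log2 differences of -0.80 ± 0.14 and -0.52 ± 0.12 (SE), with limma adjusted p = 0.0016 and 0.0076. Ndufa6, which docks an acyl carrier protein, averaged 895 in HF against 1197 in the LF-labelled libraries (limma adjusted p = 0.028). Its call was lost without LF6, LF7 or LF8 (0.105, 0.098 and 0.0543) and with no filter or no trend (0.0652 and 0.0587). Ndufv3 averaged 465 in HF against 642 in the LF-labelled libraries and did not pass (limma adjusted p = 0.096). The threshold was passed without HF replicate 1 (0.0323), with array weights (0.0469) and with equal library totals (0.005). Ndufa2, with a thioredoxin-like fold, averaged 887 in HF against 999 in the LF-labelled libraries and overlapped between groups (limma adjusted p = 0.33).

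Ndufa7 went the other way from its module. It stood at 1642, 1742, 1620.2 and 1586 in HF replicates 1 to 4 and at 1170.3, 1152 and 1169 in LF6, LF7 and LF8. The lowest HF library lay above every LF-labelled library, and the difference was 0.50 ± 0.09 (SE; limma adjusted p = 0.0016). With equal library totals it was -0.02 (limma adjusted p = 0.872).

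In the Q module and at its junction with the membrane arm, 4 of 5 genes were lower and 1 did not pass, with a median of -1.78. Ndufa5 (ENSMUSG00000023089), an accessory subunit of the module, had the lowest HF level relative to the LF-labelled libraries of all 35 genes. It stood at 43.8, 72.0, 26.9 and 93.6 in HF, which is 38, 56, 24 and 73 reads, and at 372, 419.6 and 375 in the LF-labelled libraries. Every HF value was far below every value labelled LF, and the HF mean was 15.2% of the other (log2 difference -2.84 ± 0.43, SE; limma adjusted p = 0.00074). Ndufa9, an accessory subunit that holds an NADPH molecule at the junction of the arms, stood at 428, 339, 191 and 303 in HF and 1427, 1367 and 1393 in the LF-labelled libraries. HF replicate 3 was the lowest of the 4 for this gene and for Ndufa5, and the difference of Ndufa9 was -2.20 ± 0.26 (SE; limma adjusted p = 0.00018).

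The core subunits of the Q module differed among themselves. Ndufs3, one of the first subunits to enter assembly, stood at 257, 149, 156 and 271 in HF and 709.5, 707 and 659 in the LF-labelled libraries, a log2 difference of -1.78 ± 0.26 (SE; limma adjusted p = 0.0006). Ndufs8, which carries iron-sulfur clusters on the way to quinone, averaged 698 ± 125 (SD, n = 4) and 1343 ± 24.0 (SD, n = 3), a difference of -0.96 ± 0.16 (SE; limma adjusted p = 0.0012). Ndufs7, which holds the last cluster before quinone, stood at 1284, 1013, 1288 and 824 in HF and 1288, 1318 and 1262 in the LF-labelled libraries. HF replicates 1 and 3 lay among the LF-labelled libraries while replicates 2 and 4 lay below them, and the difference of -0.25 ± 0.17 (SE) did not pass (limma adjusted p = 0.24). Of the 6 core subunits among the 35 genes, 5 were lower and 0 were higher, with a median of -1.03, and of the 28 accessory subunits 16 were lower and 4 higher, with a median of -0.52. Whether the core and accessory genes differ was not tested.

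The proximal membrane arm held the widest range of differences, with 4 of 9 genes lower, 2 higher and 3 that did not pass, and a median of -0.20. Ndufc2, a small membrane subunit, stood at 255, 150.4, 75.1 and 201 in HF and 1002, 1122 and 919 in the LF-labelled libraries. Ndufa11, a membrane subunit related to the TIM17 family of import proteins, stood at 205, 204, 169 and 186 and 899.8, 892 and 1007. The groups were far apart for both genes, and Ndufa11 was even within HF while Ndufc2 was not. Their log2 differences were -2.69 ± 0.39 and -2.28 ± 0.15 (SE), with limma adjusted p = 0.00058 and 7.6e-06. Ndufc1, a small membrane subunit like Ndufc2, had a mean of 136 ± 37.6 in HF (SD, n = 4), against 531 ± 13.4 in the LF-labelled libraries (SD, n = 3), a difference of -1.99 ± 0.24 (SE; limma adjusted p = 0.00024). Ndufa10, a matrix-facing subunit with the fold of a nucleoside kinase, averaged 487 ± 50.9 and 1202 ± 16.3, a difference of -1.31 ± 0.13 (SE; limma adjusted p = 6.4e-05).

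Ndufa3 and Ndufa13, of the same arm, were higher in HF. Ndufa3, a small membrane subunit, stood at 1803, 1713, 1637 and 1860.1 in HF and 1348, 1402 and 1403 in the LF-labelled libraries. Ndufa13, also known as GRIM-19 for its link to cell death, stood at 1763, 1572, 1754 and 1598 and 1286, 1287 and 1304. Neither gene overlapped between the groups, and the differences were 0.34 ± 0.09 and 0.37 ± 0.09 (SE; limma adjusted p = 0.012 and 0.009). These directions turned with equal library totals, to -0.18 and -0.15 (limma adjusted p = 0.105 and 0.201), and quantile normalization ended both calls (0.145 and 0.0543). The call of Ndufa3 was also lost without LF6 (0.0598). Ndufa1, which is X-linked, averaged 1041 in HF against 1190.0 in the LF-labelled libraries (limma adjusted p = 0.14). Ndufa8 and Ndufs5, which carry paired cysteine motifs and face the intermembrane space, had means of 876 and 425 in HF, against 869.5 and 356 in the LF-labelled libraries. Neither passed (limma adjusted p = 0.94 and 0.34). After quantile normalization Ndufs5 did, with a difference of 0.66 against 0.23 (limma adjusted p = 0.0159), and with equal library totals it was -0.29 (0.247). Ndufa8 passed as lower with equal library totals (0.0043).

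In the distal membrane arm, 6 of 10 genes were lower, 1 was higher and 3 did not pass, with a median of -0.72. Ndufb9, which like Ndufa6 docks an acyl carrier protein, was the most raised of the 35 genes and the most even. It stood at 1632, 1668, 1545 and 1647 in HF and at 939, 932 and 934 in the LF-labelled libraries. The groups were clearly apart, with a difference of 0.79 ± 0.09 (SE; limma adjusted p = 0.00013). It remained higher with equal library totals, at 0.27 (limma adjusted p = 0.0305), and was the 1 gene of the 35 that was higher past the threshold under all 18 alternatives.

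The lowest genes of that arm were Ndufb5 and Ndufb2. Ndufb5 stood at 310.1, 198, 358 and 266 in HF and 868, 944 and 835 in the LF-labelled libraries, and Ndufb2 at 227, 129, 137 and 164 and 396, 489 and 445. All HF values lay below those labelled LF, with differences of -1.67 ± 0.21 and -1.46 ± 0.24 (SE; limma adjusted p = 0.00032 and 0.0013). Ndufb3, Ndufb8 and Ndufb10, small accessory subunits of the arm, had means of 567, 907 and 584 in HF, against 1159.6, 1795 and 1095 in the LF-labelled libraries. Their differences lay between -1.08 and -0.93, with limma adjusted p = 0.0046, 0.00026 and 0.0026. Ndufb6 averaged 307 in HF against 436 in the LF-labelled libraries and just passed (limma adjusted p = 0.033). Its call was lost without HF replicate 3 (0.0522), without LF6, LF7 or LF8 (0.0902 to 0.113), with no filter (0.0787) and after quantile normalization (0.651). Ndufb4, the X-linked Ndufb11 and Ndufb7, a paired-cysteine subunit, overlapped between the groups, with 294, 917 and 831 in HF and 355, 851 and 763 in the LF-labelled libraries (limma adjusted p = 0.2, 0.47 and 0.5).

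Ndufa4 carries the family name but its protein is now assigned to complex IV, cytochrome c oxidase. It stood at 1121, 905, 887 and 806 in HF and 1608, 1755 and 1756 in the LF-labelled libraries. All HF values were lower, by a difference of -0.88 ± 0.13 (SE; limma adjusted p = 0.00069). Its paralogue AA467197, the mouse gene of the human C15orf48, encodes a protein known to take the place of NDUFA4 in complex IV during inflammation. AA467197 stood at 1132, 852, 866 and 771 in HF and at 2.25, 63.8 and 10.96 in the LF-labelled libraries. HF was far higher, with a log2 difference of 6.04 ± 0.86 (SE; limma adjusted p = 0.00057), and LF7 was well above LF6 and LF8, so that the difference was 7.17 without LF7 and 5.01 without LF6. Compared within HF, the levels per kilobase of transcript were 2021 normalized counts for Ndufa4 and 1173 for AA467197, and in the LF-labelled libraries they were 3709 and 33.3. Another paralogue, Ndufa4l2, did not reach the minimum mean for testing, with at most 11.5 normalized counts in any library.

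The genes were also compared with each other within a library. Levels were divided by transcript length (median protein-coding transcript, GENCODE M21). Per kilobase, the order in HF began with Ndufa3 at 4049, Ndufa7 at 3120.0 and Ndufa1 at 2484 normalized counts. In the LF-labelled libraries it began with Ndufa4 at 3709, Ndufa3 at 3196 and Ndufa6 at 3132. Ndufb2 was last in both, at 68.0 and 184. Ndufc2 moved from rank 6 of 35 in the LF-labelled libraries to rank 28 in HF, Ndufa11 from 8 to 25, and Ndufb9 from 15 to 5.

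The 35 levels per kilobase were spread more widely in HF. Their SD on the log2 scale was 1.42, 1.48, 1.64 and 1.43 in HF replicates 1 to 4 and 0.955, 0.944 and 0.941 in LF6, LF7 and LF8. Every HF library was above every LF-labelled library, and the highest gene stood 69.4-fold above the lowest in HF on average and 20.3-fold in the LF-labelled libraries. Without Ndufa4, the highest in the LF-labelled libraries, these values were 69.4 and 17.8, and the SDs of the other 34 genes were 1.41 to 1.64 and 0.899 to 0.922. The same held for 38 nuclear subunits of complexes II to V, with SDs of 1.39 to 1.45 in HF and 0.901 to 0.921 in the LF-labelled libraries. Over 9893 tested genes with a length and a read in every library the SDs were 2.64 to 2.81 and 2.43 to 2.51.

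**Figure D3:**
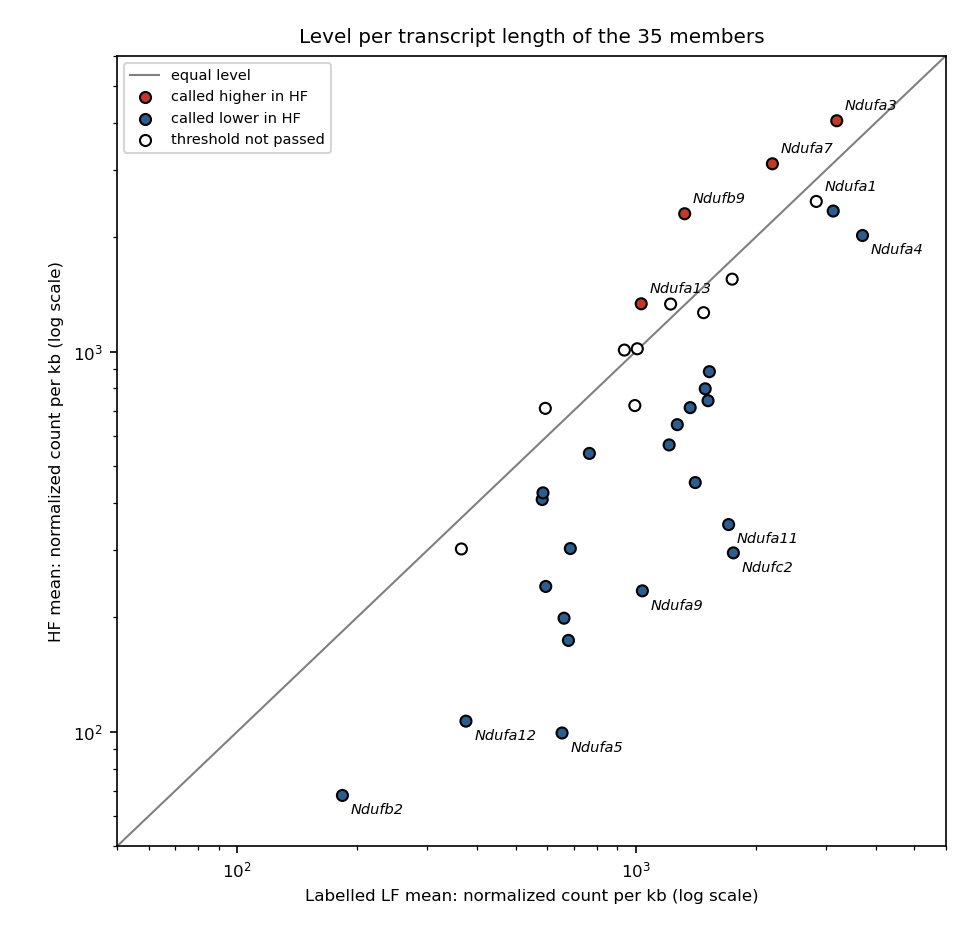
Mean level per kilobase of transcript in HF (vertical, log scale) against that in the LF-labelled libraries (horizontal, log scale) for the 35 genes, coloured by call, with the line of equal level. The points fan out below the line, down to Ndufa5 and Ndufb2, while Ndufb9, Ndufa7, Ndufa3 and Ndufa13 lie clearly above it and 4 genes that did not pass lie at or just above it.

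A gene's share of the summed counts of all 35 is free of the size factor of its library. Ndufb9 made up 6.78% ± 0.546 of the sum in HF (SD, n = 4) and 2.70% ± 0.0266 in the LF-labelled libraries (SD, n = 3). For Ndufa7 the shares were 6.89% ± 0.710 and 3.36% ± 0.0520, for Ndufa9 they were 1.30% ± 0.352 and 4.03% ± 0.104, and for Ndufc2 0.697% ± 0.273 and 2.92% ± 0.271 (SD, same n). Of the 35 shares, 10 were higher in every HF library than in every LF-labelled library, 18 were lower in every HF library and 7 overlapped. The shares of a library add up to the whole, so lower shares of some genes raise those of others. Ndufa1 was 1 of the 10, at 4.33% against 3.43%, though its HF counts all lay below those labelled LF. No such count was made for all genes. The sum itself was 24049 ± 1866 normalized counts in HF (SD, n = 4) and 34657 ± 263 in the LF-labelled libraries (SD, n = 3), or 0.13% and 0.268% of all counts.

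The coefficient of variation was larger among the HF libraries in 34 of the 35 genes, with a median of 15.02% against 3.73%. It was also larger in HF for nearly all of the 38 nuclear subunits of complexes II to V. No such count was made for all genes. Within HF, the genes called lower had a median coefficient of 19.9% and the other 13 genes one of 8.93%. The genes called lower include those with the fewest reads in HF, such as Ndufa5 with 24 to 73. Low counts are less exact, and their part in this difference was not tested. HF replicate 1 was the highest HF library in 23 of the 35 genes, and HF replicate 2 the lowest in 16. Among the 38 subunits of complexes II to V, HF replicate 1 was likewise the highest in 25. The summed level of 11 alveolar macrophage markers in HF replicate 1 was 34872 against 10129 to 12675 in the other HF libraries and 24592 to 27761 in the LF-labelled libraries. Chil3 made up 30151 of that sum. Without it HF replicates 1 to 4 stood at 4721, 3620.5, 3641 and 4943, so that replicate 1 was not the highest. HF replicate 1 was also the highest for Atp6v0d2, Krt79 and Cidec, at 703, 193 and 92.2. The other HF libraries reached at most 51.3, 46.2 and 35.9 for these genes. Siglecf, Ear2, Car4, Fabp4, Fabp5 and Pparg were highest in another HF library. The neutrophil granule genes Camp, Ngp and Ltf were also highest in HF replicate 1, at 17783, 67282 and 64164, against at most 6465, 26685 and 20498 in the other HF libraries. Camp, Ngp, Ltf, Chil3, Atp6v0d2, Krt79 and Cidec were singled out after their values were seen. Their part in the differences within HF was not tested. Of the alveolar macrophage markers 1, Marco, was at 0 in all HF libraries, and of the 9 tested 1 was higher and 2 were lower in HF. Without HF replicate 1 the counts of the 35 genes were again 22 lower and 4 higher.

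None of the other complex I genes tested was called higher. Ndufab1, the acyl carrier protein, was lower, with 309, 543, 206 and 266 in HF and 687, 689 and 704 in the LF-labelled libraries. The groups did not overlap, and the means were 331 in HF against 693 in the LF-labelled libraries (limma adjusted p = 0.012). Ndufb1-ps did not pass, at 1324 in HF against 1345 in the LF-labelled libraries (limma adjusted p = 0.84).

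The subunits encoded by mitochondrial DNA form the proton-pumping core. Of 7 such genes, mt-Nd4l did not reach the minimum mean, 3 of the other 6 were lower and 0 were higher. The lower genes were mt-Nd1, mt-Nd5 and mt-Nd6, with differences of -0.90, -0.92 and -0.87 (limma adjusted p = 0.011, 0.011 and 0.019). mt-Nd1 stood at 5471, 5455, 2919 and 3473 in HF and 7552, 8415 and 7352 in the LF-labelled libraries. HF replicates 3 and 4 were the low ones, while all 4 lay below the LF-labelled libraries. mt-Nd2 and mt-Nd4 overlapped between groups and did not pass (limma adjusted p = 0.24 and 0.15). The call of mt-Nd6 was lost without LF6, LF7 or LF8 (0.0519 to 0.0643), and with equal library totals or quantile normalization 5 of the 6 were lower. Summed, the 7 genes stood at 0.582 ± 0.173 times the sum of the 35 nuclear genes in HF (SD, n = 4) and at 0.633 ± 0.0464 times in the LF-labelled libraries (SD, n = 3), ranges that overlap.

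Assembly factors, which build the complex without staying in it, were mostly lower. Of 20 listed, 19 were tested, 14 of them (73.7%) were lower in HF and 0 were higher, against 28.7% and 26.2% of all genes tested. Their median log2 difference was -1.71. Coa1 was not analysed here. Ecsit, a factor that also takes part in Toll-like receptor signalling, stood at 12.7, 28.3, 8.97 and 25.7 in HF and 264, 307 and 266 in the LF-labelled libraries. Acad9, its partner in the assembly complex of the membrane arm, stood at 45.0, 99.0, 114 and 74.4 and 399, 354 and 363. Both were far lower in every HF library, by differences of -3.95 ± 0.46 and -2.23 ± 0.34 (SE; limma adjusted p = 0.00019 and 0.00082). Ndufaf1 and Tmem186, of the same assembly complex, were at 0 in HF replicates 1 and 3 and at 34.7 and 39.8, and 34.7 and 70.6, in replicates 2 and 4. In the LF-labelled libraries they averaged 224 and 312 (limma adjusted p = 0.018 and 0.02). These calls rest on uneven HF libraries. That of Ndufaf1 was lost without LF6 or LF8 (0.0586 and 0.0568), and that of Tmem186 without LF6, LF7 or LF8 (0.0555 to 0.058). Both were lost with edgeR on the authors' size factors (0.0507 and 0.0538), and that of Tmem186 also with edgeR and TMM (0.0518). Neither gene passed in the authors' deposited table (the authors' adjusted p = 0.0997 and 0.126). Ndufaf2, the factor that NDUFA12 replaces, averaged 11.8 in HF against 55.2 in the LF-labelled libraries (limma adjusted p = 0.052). It passed without HF replicate 2, 3 or 4 (0.0295, 0.0458 and 0.0363) and under 4 other alternatives (0.016 to 0.0254). Foxred1 and Timmdc1 overlapped between the groups (limma adjusted p = 0.39 and 0.77). The count of lower factors was 6, 6 and 5 without LF6, LF7 and LF8. With all libraries it ran from 10 (quantile normalization, edgeR with the authors' size factors) to 18 (equal library totals), with 12 in DESeq2.

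**Figure D4:**
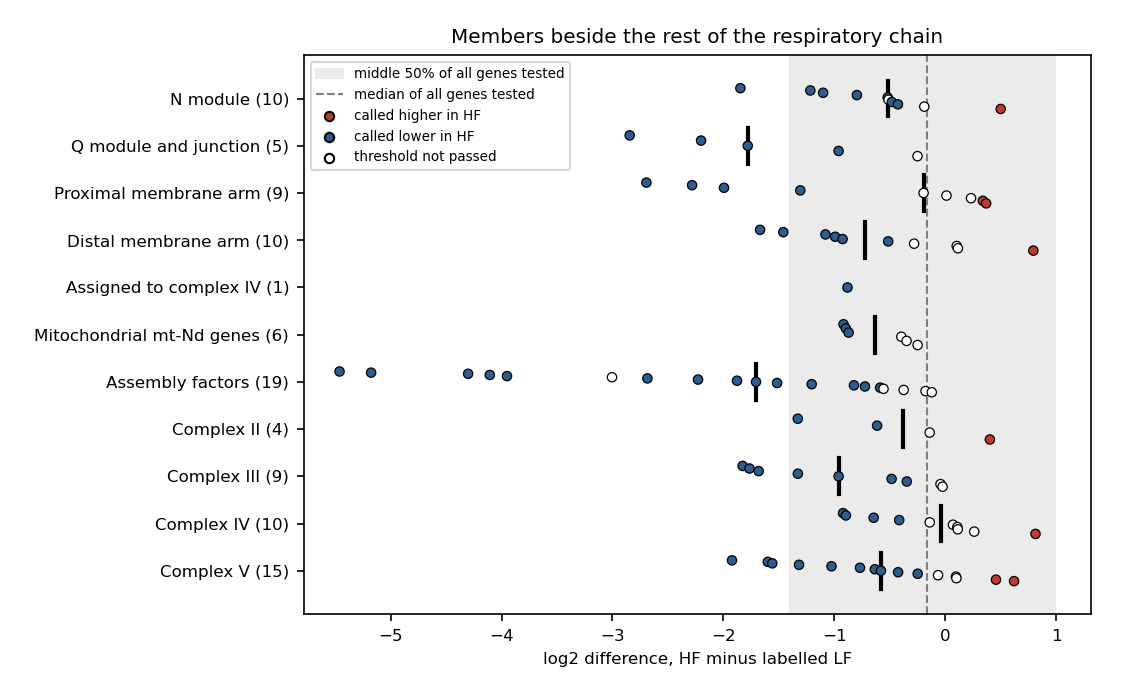
Log2 difference, HF minus labelled LF, of each tested gene of complex I (by module), its mitochondrially encoded subunits and its assembly factors, and of complexes II to V, with the number of genes in parentheses, a bar at the median of each list of more than 1 gene, and the median and middle 50% of all genes tested. The assembly factors reach furthest to the left (median -1.71), and complex IV lies nearest to 0 (median -0.03).

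Nuclear genes of the other respiratory complexes gave similar counts. Of 38 subunits of complexes II to V, 23 (60.5%) were lower in HF and 4 (10.5%) were higher, with a median of -0.45, beside 62.9%, 11.4% and -0.80 for the 35 genes. In complex III 7 of 9 were lower with a median of -0.96, in complex V 10 of 15 with -0.58, in complex II 2 of 4 with -0.38, and in complex IV 4 of 10 with -0.03. These counts and medians come from the same libraries and carry no test between complexes.

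Genes that control mitochondrial genes moved in different directions. Nrf1, which encodes the factor of the first motif above, was higher in HF, with 2043, 1673, 1807 and 1838 in HF and 1093, 968 and 1040.4 in the LF-labelled libraries. The difference was 0.83 ± 0.10 (SE; limma adjusted p = 0.00028), and no values overlapped. Gabpb1, a subunit of GABP, was higher by 1.84 ± 0.17 (SE), while its partner Gabpa did not pass (limma adjusted p = 5.1e-05 and 0.54). Tfam, which packages and transcribes mitochondrial DNA, was lower, at 209, 161, 137 and 145 in HF and 549.9, 513 and 536 in the LF-labelled libraries. The groups did not overlap (difference -1.72 ± 0.20, SE; limma adjusted p = 0.00018). Of the 10 regulators listed 2 were higher, 4 lower and 4 did not pass. Nrf1, Gabpb1 and Tfam kept their calls under all 18 alternatives, and the other lower genes did not. The call of Ppargc1b was lost without LF6, LF7 or LF8 (limma adjusted p = 0.0806, 0.093 and 0.07), without HF replicate 2 (0.05), with no filter (0.0516) and with edgeR (0.0527 and 0.0502). Pprc1 lost its call without LF6, LF7 or LF8 (0.0651 to 0.0705), without HF replicate 2 (0.0529) and with no trend (0.0507). Tfb2m lost it without LF7 or LF8 (0.061 and 0.06) and after quantile normalization (0.297), where its difference was -0.33 against -0.89. Among the 7 genes with the NRF1 motif in their window, Ndufa11, Ndufa5, Ndufs6 and Ndufa6 were lower in HF, and Ndufa8, Ndufs5 and Ndufb4 did not pass.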

How the data were processed

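RNA-seq values of 7 libraries came as 1 deposited table. STAR 2.6.1b, featureCounts 1.6.3 and DESeq2 1.20.0 stand in the submitters' processing notes, without their roles. Genome build, annotation and strand setting: not given in the sources used here. The name of the deposited table calls the library values normalized counts, a signal per gene. In every library 100% of values were whole multiples (within 0.01) of what 1 read was worth, which gave back the reads and 1 size factor per library. The authors' log2 fold changes, test score and p-values, also in the table per the file headers, served only for sentences that name the authors' deposited table.

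The HF columns carry the labels' numbers. The LF columns are numbered 6 to 8 and the LF samples 1 to 3, so these columns entered as the LF group without replicate numbers. Unmapped columns numbered 0. Mice are counted per group in the design text, and p-values reflect spread among libraries.

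limma 3.58.1 (R 4.3.3, trend) compared HF with LF on log2(normalized count + 1) for all genes whose mean was 10 or more, with Benjamini-Hochberg adjusted p and a threshold of 0.05. Differences of low genes depend on this scale and could come out larger or smaller than in the authors' deposited table. They were larger for Tmem186 (-5.46 against -3.57) and Ndufaf1 (-5.18 against -3.59). They were smaller for Krt79 (1.47 against 3.43) and Cidec (2.54 against 3.37). The 35 genes and all lists were chosen with earlier results of these data known, so lists have counts and medians but no test. Every one of the 35 is named, and other genes come from the lists, of which 1 gene is not reported here. The alternatives were a pseudocount of 0.5 or 5, another filter (none, or a mean of 50), equal library totals, quantile normalization, limma without trend or with array weights, edgeR 4.0.16 with the authors' size factors or TMM and DESeq2 1.42.0 (both on the reads), and leaving out 1 library at a time. With the authors' size factors 7624 genes were called by edgeR, against 8211 by limma. Scripts were tested on simulated counts. Shares within the 35 genes, and values without Ndufa4 or Chil3, were added after seeing the data. Lengths are from GENCODE M21, which may differ from the authors' annotation. Reads of near-identical copies could be split, and Ndufs6b, Ndufa11b and Ndufb4c had at most 15, 13 and 8 reads in any library. Plots used matplotlib 3.10.9.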

Additional observations from a re-analysis of the deposited data

Results flagged for a closer look

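In the HF group of 4 libraries, 2 of 63 complex I genes tested had 1 library far from the others, where chance alone marks about 1 in 20 groups. The mitochondrial gene mt-Nd3 stood at 28.3 in HF replicate 2, against 10.3 to 12.7 in the other HF libraries. The assembly factor gene Nubpl, whose protein delivers iron-sulfur clusters to complex I, stood at 35.9 in HF replicate 4, against 14.6 to 18.0 in the others. None of the 35 nuclear subunit genes was marked in this way.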

How the results depend on the processing

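Of 630 values (35 genes under 18 alternatives), 588 kept their direction and side of the threshold, as did 20 of the 35 genes under every alternative. Past the threshold in all 18 were 19 lower genes and 1 higher gene, Ndufb9. Without 1 library, called log2 differences of the 35 genes stood at 0.794 to 1.265 times their value with all. Equal library totals left 1 gene higher, moved the median of the 35 to -1.316, and reversed Ndufa8 (-0.5083), Ndufb11 (-0.4159), Ndufb7 (-0.4051), Ndufs5 (-0.2857), Ndufa3 (-0.1804), Ndufa13 (-0.1506) and Ndufa7 (-0.01952). By construction it sets each library's total equal, where HF totals of normalized counts had been larger. Under that scaling 30.0% of all 8991 calls were higher, against 47.7% of 8211. The median of the 35 minus that of all genes was -0.64, with a range of -0.50 to -0.99 over the alternatives. Quantile normalization reversed Ndufb4 (0.196), Ndufaf3 (0.1515), Timmdc1 (0.1647) and the regulator Esrra (0.3905), edgeR with TMM reversed Ndufa8 (-0.01275), and DESeq2 Esrra (0.006575). The cause was not tested. None of these reversed genes passed the threshold in the value with all libraries except Ndufa3, Ndufa13 and Ndufa7. With 1 library left out, values ran from -0.0293 to 0.04874 for Ndufa8, from -0.09116 to 0.01349 for Ndufb1-ps and from -0.05703 to 0.0175 for Esrra. The 28 other complex I genes tested gave 19 calls, all lower, with 9 (without LF8) to 20 (without HF replicate 2 or 4) when 1 library was left out and 15 (edgeR with the authors' size factors) to 26 (equal library totals) under the other alternatives. Without LF6 or LF7 the count was 10, where fewer samples entered. No paired analysis was possible because the LF columns carry numbers (6 to 8) that match no replicate number in the labels. The fewest reads of any of the 35 genes in a library were 24 in HF and 406 in the LF-labelled libraries, so low genes are less exact in HF.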
